A study of Mus musculus with 9 samples.

Results

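The genes described are 28 mouse genes of sterol and fatty acid synthesis: the enzymes that turn acetyl-CoA into cholesterol, the regulators that switch those enzymes on, and the core of fatty acid synthesis. Members were the non-control array probes whose accession belongs to 1 of these genes. In this way 27 of the 28 genes had a probe, out of 22911 genes with a probe in all. The exception was Acat2, the cytosolic thiolase at the first step, for which no probe carried its accession. The 27 genes had 42 probes, and the probe with the highest mean signal stood for the gene. All 27 chosen probes were well above background on all 9 arrays, so none of the measured genes was lost to the filter on dim probes.

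RNA came from whole lungs of male C57BL/6J mice, 12 weeks old when exposure began. For 6 months the mice breathed a 3.5% aerosol of IQOS (a device that heats tobacco without burning it), 3.5% cigarette smoke (CS) or fresh air. Each group had 3 one-colour arrays, called IQOS 1 to 3, CS 1 to 3 and air 1 to 3 after the numbers in the labels. The labels do not say whether an array held 1 mouse or several, so a p-value refers only to the variation from array to array.

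Cholesterol is built in 3 stages. Acetyl-CoA units are first joined and reduced to mevalonate and then activated to isoprenoid units. These are condensed to squalene, which is closed to lanosterol, and a last set of enzymes trims lanosterol to cholesterol. The transcription factor SREBP2, encoded by Srebf2, raises these enzymes when membrane sterol is low, and SREBP1, encoded by Srebf1, acts more on fatty acid synthesis. Scap escorts both factors out of the endoplasmic reticulum and Insig1 holds them back. In the lung, alveolar type II cells make fatty acids for surfactant lipid, and alveolar macrophages take up surfactant lipid and export its sterol.

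Promoters were read from RefSeq (build GRCm38.p6), each window running from 250 bases before to 50 bases after a gene's start. The table held promoters for 23 of the 28 genes, 29 in all, and none for Fdps, Fdft1, Sqle, Stard4 and Scd1. The NF-Y box CCAAT, bound by the factor that works beside SREBP, was found on either strand in 69% of the members' promoters and in 37.4% of all 32851 promoters. The Sp1 box GGGCGG was found in 75.9% of the members' promoters and in 35.7% of all promoters. The E-box CACGTG was found in 20.7% against 7.15%. The sterol regulatory element TCACNCCAC was found in 1 promoter of the members, that of Hmgcs1, against 1.24% of all promoters. None of the 4 motifs contains another, and a match is only a match of letters. Below are the promoters of the called genes with an entry that the results turn on, and of Hmgcs1 because it holds the only sterol element. Capitals mark the NF-Y box on either strand (CCAAT or ATTGG) and, in Hmgcs1, also the sterol regulatory element.
Pmvk: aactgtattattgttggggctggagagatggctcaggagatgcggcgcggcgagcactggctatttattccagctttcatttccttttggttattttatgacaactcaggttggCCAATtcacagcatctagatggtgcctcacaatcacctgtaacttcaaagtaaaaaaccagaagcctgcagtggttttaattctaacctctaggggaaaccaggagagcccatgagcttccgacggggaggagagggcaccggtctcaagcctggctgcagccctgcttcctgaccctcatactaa
Mvk: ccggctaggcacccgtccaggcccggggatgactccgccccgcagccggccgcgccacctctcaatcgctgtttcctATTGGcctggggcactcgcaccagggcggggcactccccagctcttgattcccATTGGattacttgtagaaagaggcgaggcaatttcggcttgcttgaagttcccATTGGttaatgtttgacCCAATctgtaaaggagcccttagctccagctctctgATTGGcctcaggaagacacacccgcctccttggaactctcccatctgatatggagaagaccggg
Hmgcs1: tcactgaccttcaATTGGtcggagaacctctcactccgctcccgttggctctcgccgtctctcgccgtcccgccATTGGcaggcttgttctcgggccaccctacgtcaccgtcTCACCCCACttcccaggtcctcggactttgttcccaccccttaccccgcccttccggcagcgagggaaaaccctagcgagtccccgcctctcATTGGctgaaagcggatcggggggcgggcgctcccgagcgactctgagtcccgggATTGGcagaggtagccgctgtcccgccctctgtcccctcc
Cyp51: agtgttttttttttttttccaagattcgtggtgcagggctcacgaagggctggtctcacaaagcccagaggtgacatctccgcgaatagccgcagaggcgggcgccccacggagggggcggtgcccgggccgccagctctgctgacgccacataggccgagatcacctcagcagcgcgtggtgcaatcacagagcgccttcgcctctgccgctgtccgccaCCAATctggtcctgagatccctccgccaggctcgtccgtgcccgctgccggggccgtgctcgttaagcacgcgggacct
Msmo1: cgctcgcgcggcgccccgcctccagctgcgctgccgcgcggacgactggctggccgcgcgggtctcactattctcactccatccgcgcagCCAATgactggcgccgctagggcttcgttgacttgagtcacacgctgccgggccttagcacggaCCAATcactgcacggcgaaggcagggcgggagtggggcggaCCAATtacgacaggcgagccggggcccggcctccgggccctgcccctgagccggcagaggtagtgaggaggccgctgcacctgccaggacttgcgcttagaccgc
Ebp: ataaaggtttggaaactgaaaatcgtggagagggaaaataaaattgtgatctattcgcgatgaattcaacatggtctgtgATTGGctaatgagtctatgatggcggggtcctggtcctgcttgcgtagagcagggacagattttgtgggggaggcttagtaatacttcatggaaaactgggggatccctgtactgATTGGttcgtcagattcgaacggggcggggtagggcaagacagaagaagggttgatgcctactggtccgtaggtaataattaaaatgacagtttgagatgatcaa
Pmvk is on the plus strand at chr3:89454291-89454590 and its window holds 1 NF-Y box. A second Pmvk start in the table, at chr3:89459321-89459620, has none of the 4 motifs. Mvk, at chr5:114444019-114444318 on the plus strand, holds 5 NF-Y boxes. Hmgcs1, at chr13:119690101-119690400 on the plus strand, holds 4 NF-Y boxes and 1 sterol element. Cyp51 lies on the minus strand at chr5:4104648-4104947 with 1 NF-Y box. Msmo1 lies on the minus strand at chr8:64733529-64733828 with 3, and Ebp on the minus strand at chrX:8193463-8193762 with 2.

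All values below are log2 signals relative to the 75th percentile of the array, so a difference of 1 is a 2-fold difference. A value of 1 gene is not comparable with that of another, since probes differ. Differences carry the standard error (SE) of a limma fit to all 9 arrays, and a gene was called at an adjusted p under 0.05 (Benjamini-Hochberg over 37258 probes). Air and CS arrays shared 1 slide, and because the IQOS arrays were on a slide of their own, an effect of that slide and one of IQOS cannot be told apart. Array row 2 held the CS arrays and air 3, and row 1 the IQOS arrays, air 1 and air 2. Cyp1a1, the enzyme induced by tobacco smoke hydrocarbons, separated 1 IQOS array from the others. It read -1.58, -1.46 and 3.09 on IQOS 1 to 3, 6.64, 6.68 and 6.65 on CS 1 to 3, and -2.62, -2.07 and -2.06 on air 1 to 3. Calls of members and of named pathway genes that rest on IQOS 3 are therefore given with and without it. Those of neighbouring genes and of cell type markers are given only with it.

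Few of the 27 genes were called. For CS against air, 1 gene rose (Pmvk) and 2 fell (Mvk and Stard4), where 5.59% of all 16590 tested genes rose and 6.12% fell. For IQOS against air, 1 rose (Pmvk) and 1 fell (Stard4), where 1.99% of all genes rose and 0.886% fell. For IQOS against CS, 5 fell (Pmvk, Fdft1, Cyp51, Msmo1 and Ebp), where 5.17% of all genes fell. In that comparison 0 members rose by limma, and 4.94% of all genes did. Against air, the 1 or 2 genes of 27 called in each direction were too few to set apart from these background shares. For IQOS against CS the 5 genes that fell, of 27, were a larger share than the 5.17% of all genes, a difference that was not tested. At an unadjusted p under 0.05 there were 8 members for CS against air, 8 for IQOS against air and 14 for IQOS against CS, the last all lower in IQOS. The share of all genes at that looser threshold was not computed, so such counts, here and below, have no background beside them. The comparisons of CS and IQOS with air share the air arrays. These are whole lungs, in which fewer cells of a type and less RNA per cell cannot be told apart.

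**Figure D1:**
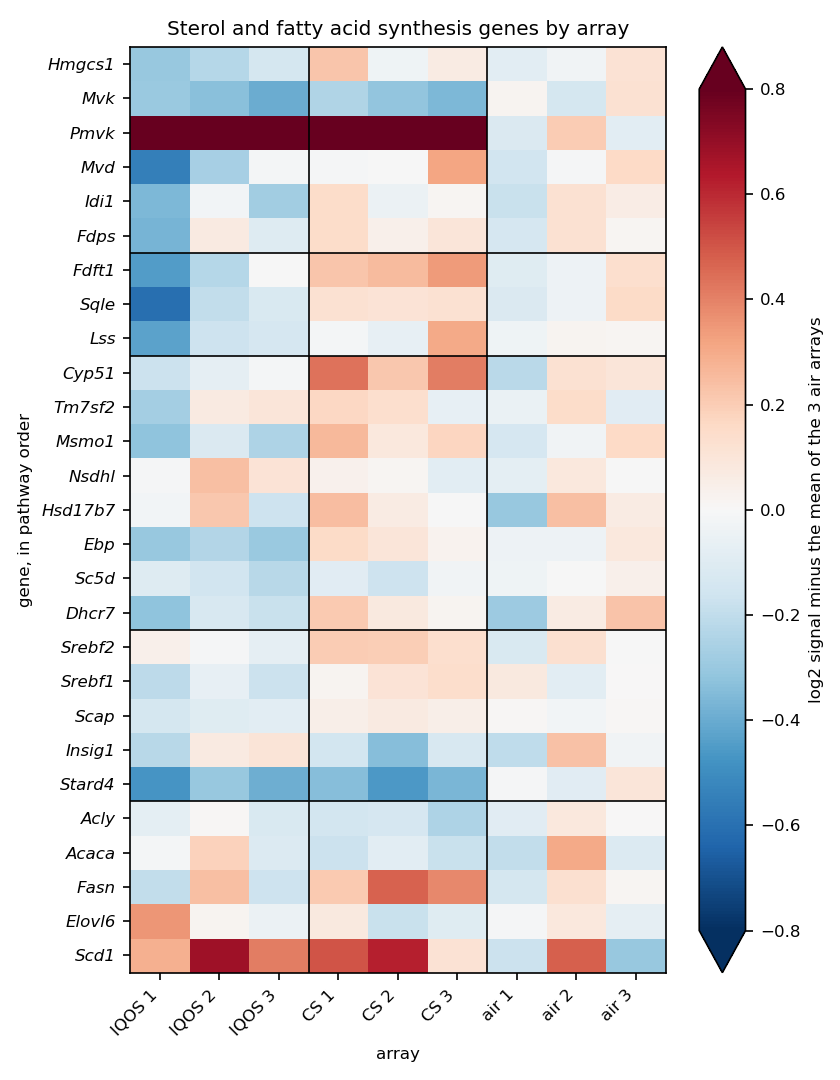
Each cell is a gene's log2 signal on 1 array minus the mean of the 3 air arrays, with genes in pathway order from top to bottom and arrays in columns (IQOS, CS, air). Black lines part the pathway stages and the groups, and the colour saturates at 0.8. Pmvk is off the scale on all 6 exposed arrays, Mvk and Stard4 are blue on all of them, and IQOS 1 is the bluest column among the sterol enzymes.

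The first stage, from acetyl-CoA to isoprenoid units, held the 1 member with a large change. Pmvk, the kinase that adds the second phosphate to mevalonate, read 4.94, 5.08 and 4.65 in IQOS lungs, 5.70, 5.73 and 5.44 in CS lungs, and 3.70, 4.02 and 3.74 in air lungs. The 3 groups did not overlap: CS was highest, IQOS lay between and air was lowest. Pmvk rose 3.49-fold with CS against air (log2 change 1.80 ± 0.14 SE, adjusted p = 0.00193). It rose 2.10-fold with IQOS against air (1.07 ± 0.14, adjusted p = 0.0121). Between the exposures, IQOS was 1.66-fold lower than CS (-0.73 ± 0.14, adjusted p = 0.0206). Only 117 of the 16590 genes had a larger positive change with CS and 96 with IQOS. A second Pmvk probe gave 1.82 for CS against air, 1.15 for IQOS against air and -0.67 for IQOS against CS, each called (adjusted p = 0.00278, 0.0145 and 0.0398).

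The Pmvk rise with CS was called under all 21 alternative settings (log2 change 1.74 to 1.90, highest adjusted p 0.017). On the air and CS slide alone it was 1.80 (adjusted p = 0.0113). Without IQOS 3, Pmvk was 1.19 for IQOS against air (adjusted p = 0.0234) and -0.61 for IQOS against CS (0.0479). The IQOS rise was not called without air 1 or IQOS 2 (highest adjusted p 0.0659), and the difference between exposures not without CS 2 or IQOS 1 (highest adjusted p 0.071). With array row as a covariate, which sets CS against air 3 and IQOS against air 1 and air 2, Pmvk was 1.88 for CS (adjusted p = 0.017), 1.03 for IQOS (0.0504) and -0.86 between the exposures (0.297). The genes beside Pmvk on chromosome 3, looked up after its values were seen, moved less. Kcnn3, a potassium channel gene, rose by 0.55 with CS against air (adjusted p = 0.0421). It was -0.56 ± 0.13 for IQOS against CS (adjusted p = 0.0393) and -0.02 ± 0.13 for IQOS against air (0.959). Pbxip1 rose by 0.26 with IQOS against air (adjusted p = 0.042).

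Mvk, the mevalonate kinase that acts just before Pmvk, went the other way. It read 2.35, 2.32 and 2.25 in IQOS lungs, 2.41, 2.33 and 2.29 in CS lungs, and 2.67, 2.51 and 2.77 in air lungs. Every exposed array was below every air array, as was the case for 21% of all genes with CS and 15.1% with IQOS. With CS, Mvk fell by 0.31 on the log2 scale (SE 0.08, adjusted p = 0.0462), which is 1.24-fold. With IQOS against air it was -0.35 ± 0.08 and just missed the threshold (adjusted p = 0.0538). The 2 exposures differed by -0.04 ± 0.08, with an interval from -0.22 to 0.14. The call with CS was lost when any array but air 2 was left out (highest adjusted p 0.139), on the air and CS slide alone (0.0849) and with array row as a covariate (-0.43, 0.113). The dimmer second Mvk probe gave -0.29 with CS (adjusted p = 0.0908) and -0.34 with IQOS (0.0883). Mvk and Pmvk, consecutive enzymes, thus had opposite signs against air in both exposures.

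The other 4 measured genes of this stage were not called in any comparison. Hmgcs1, the HMG-CoA synthase, averaged 3.38 ± 0.08 in IQOS lungs, 3.69 ± 0.13 in CS lungs and 3.60 ± 0.10 in air lungs (SD, n = 3 each). Its IQOS arrays lay below all CS and all air arrays, with -0.31 ± 0.09 against CS (SE, adjusted p = 0.066) and -0.22 ± 0.09 against air (0.193). Mvd, the decarboxylase that makes the first isoprenoid unit, averaged -1.20 ± 0.27 in IQOS lungs, -0.82 ± 0.18 in CS lungs and -0.92 ± 0.15 in air lungs. Idi1, the isomerase of these units, averaged 1.84 ± 0.17 in IQOS, 2.10 ± 0.10 in CS and 2.06 ± 0.16 in air lungs. Fdps, which joins them to farnesyl diphosphate, averaged 2.83 ± 0.22 in IQOS, 3.06 ± 0.05 in CS and 2.97 ± 0.13 in air lungs. In each of these 4 genes the IQOS mean was the lowest and the CS mean the highest. Mvd was -0.38 ± 0.15 for IQOS against CS (adjusted p = 0.157), Idi1 -0.26 ± 0.11 (0.184) and Fdps -0.23 ± 0.12 (0.246).

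**Figure D2:**
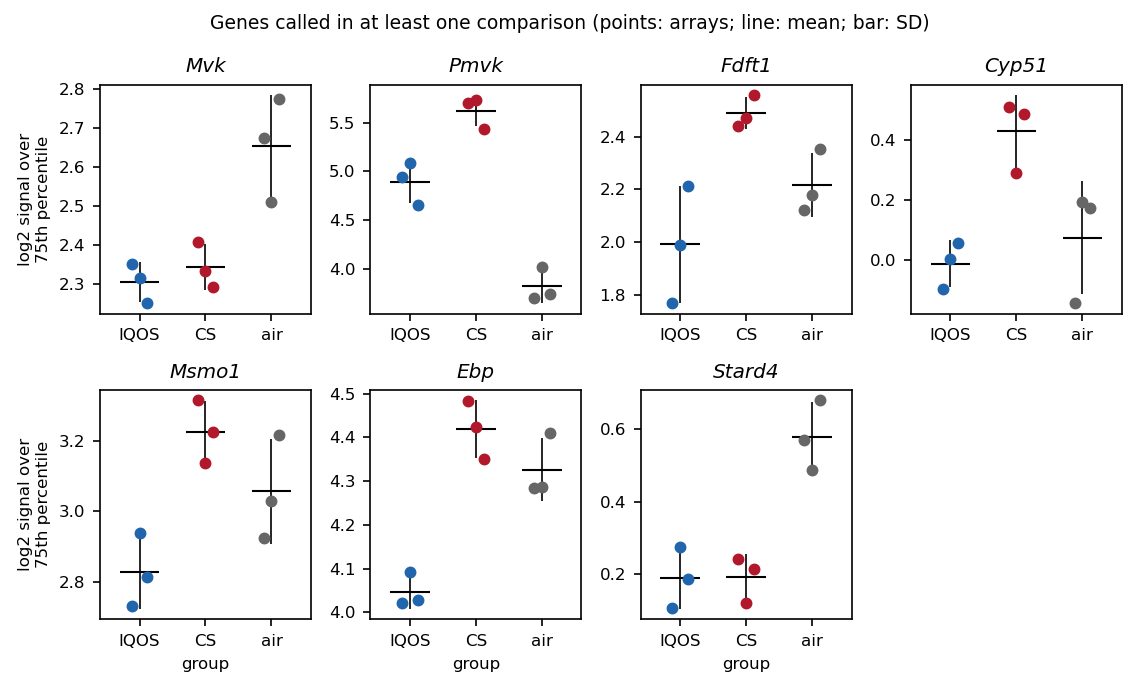
Log2 signal over the array's 75th percentile for the 7 genes called in at least 1 comparison, with points for the arrays, a line for the mean and a bar for the SD (n = 3 per group). Groups run IQOS, CS, air, and each panel has its own scale, which does not start at 0. Pmvk is higher and Mvk and Stard4 are lower on every exposed array, while Fdft1, Cyp51, Msmo1 and Ebp are lower on every IQOS array than on every CS array.

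The second stage, from farnesyl units to lanosterol, was lower in IQOS than in CS lungs in all 3 of its genes, and 1 was called. Fdft1, the squalene synthase, read 1.77, 1.99 and 2.21 in IQOS lungs, 2.44, 2.47 and 2.56 in CS lungs, and 2.12, 2.18 and 2.35 in air lungs. Its IQOS arrays lay below all CS arrays and overlapped with air. Fdft1 was 1.41-fold lower in IQOS than in CS (-0.50 ± 0.12, adjusted p = 0.0367), and its second probe gave -0.53 (adjusted p = 0.0316). Against air, Fdft1 was 0.27 ± 0.12 with CS (adjusted p = 0.167) and -0.23 ± 0.12 with IQOS (0.30). Sqle, the epoxidase that commits squalene to sterol, read 1.94, 2.34 and 2.42 in IQOS lungs, 2.66, 2.65 and 2.66 in CS lungs, and 2.43, 2.50 and 2.69 in air lungs. Every IQOS array was below every CS and every air array, with IQOS 1 farthest down. The difference was -0.42 ± 0.13 against CS (adjusted p = 0.0759) and -0.31 ± 0.13 against air (0.214). Lss, which closes the ring to lanosterol, averaged 0.06 ± 0.16 in IQOS lungs, 0.37 ± 0.20 in CS lungs and 0.30 ± 0.03 in air lungs (SD, n = 3 each). It was -0.32 ± 0.12 for IQOS against CS (adjusted p = 0.123).

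The third stage, from lanosterol to cholesterol, had 3 of 8 genes called lower in IQOS than in CS. Cyp51, the demethylase that starts it, read -0.09, 0.0046 and 0.06 in IQOS lungs, 0.51, 0.29 and 0.49 in CS lungs, and -0.14, 0.19 and 0.17 in air lungs. All CS arrays lay above all arrays of the other groups, which overlapped each other. Cyp51 was 1.36-fold lower in IQOS than in CS (-0.44 ± 0.11, adjusted p = 0.0426). A much dimmer second probe gave -0.39 and was not called (adjusted p = 0.154), and the call was lost when the probes were averaged (-0.42, 0.0684). With CS against air it was 0.35 ± 0.11 (adjusted p = 0.0734), and with IQOS against air -0.09 ± 0.11 (0.679).

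Msmo1, the methylsterol oxidase that follows, read 2.73, 2.94 and 2.81 in IQOS lungs, 3.31, 3.14 and 3.23 in CS lungs, and 2.92, 3.03 and 3.22 in air lungs. IQOS and CS did not overlap, and air lay across both. Msmo1 was 1.32-fold lower in IQOS than in CS (-0.40 ± 0.09, adjusted p = 0.0389), and a second probe gave -0.38 (adjusted p = 0.0314). Ebp, the sterol isomerase, read 4.02, 4.09 and 4.03 in IQOS lungs, 4.48, 4.42 and 4.35 in CS lungs, and 4.28, 4.29 and 4.41 in air lungs. Every IQOS array was below all 6 other arrays. Ebp was 1.29-fold lower in IQOS than in CS (-0.37 ± 0.06, adjusted p = 0.0145). Against air it was -0.28 ± 0.06 with IQOS (adjusted p = 0.0544) and 0.09 ± 0.06 with CS (0.373). Its dimmer second probe gave -0.20 for IQOS against CS (adjusted p = 0.0654).

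The other 5 genes of the stage were not called. Dhcr7, the last reductase, averaged -1.83 ± 0.10 in IQOS lungs, -1.52 ± 0.10 in CS lungs and -1.62 ± 0.27 in air lungs (SD, n = 3 each), with all IQOS arrays below all CS arrays (-0.31 ± 0.13 SE, adjusted p = 0.166). Sc5d, a sterol desaturase, averaged 1.39 ± 0.06 in IQOS, 1.46 ± 0.07 in CS and 1.55 ± 0.04 in air lungs. Its IQOS arrays were all below the air arrays (-0.16 ± 0.06, adjusted p = 0.184). Tm7sf2, a sterol reductase, averaged 1.09 ± 0.20 in IQOS, 1.20 ± 0.13 in CS and 1.12 ± 0.13 in air lungs. Hsd17b7, a sterol ketone reductase, averaged 0.87 ± 0.19 in IQOS, 0.97 ± 0.13 in CS and 0.86 ± 0.28 in air lungs. Nsdhl, the dehydrogenase that works with Msmo1, averaged -0.39 ± 0.12 in IQOS, -0.51 ± 0.06 in CS and -0.50 ± 0.08 in air lungs, and was the 1 sterol enzyme with its IQOS mean above its CS mean (0.12 ± 0.08, adjusted p = 0.363).

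Over the 17 measured sterol enzymes, the change for IQOS against CS was below 0 in 16, with a median of -0.31, where 46.8% of all genes were below 0 and 53.2% above it, with a median of 0.02. For IQOS against air, 14 of 17 were below 0 (median -0.22), where 52.7% of all genes were (median -0.01). That count rests on the chosen probes: a dimmer probe of Lss (0.05) and one of Tm7sf2 (0.10) were above 0 in this comparison. With a gene's probes averaged, 13 of 17 were below 0 (median -0.19). For CS against air, 14 of 17 were above 0 (median 0.09) and 3 below, where 47% of all genes were above 0 and 53% below (median -0.02). In 12 of the 17 the group means ran CS above air above IQOS, an order seen in 16.7% of all genes. In 10 of the 17 every IQOS array was below every CS array, which was so in 16.8% of all genes. These enzymes are known to vary together, so the counts are not those of independent genes, and no test was made over them. Most of the single differences did not pass: of the 16 enzymes below 0 in IQOS against CS, 5 were called.

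**Figure D3:**
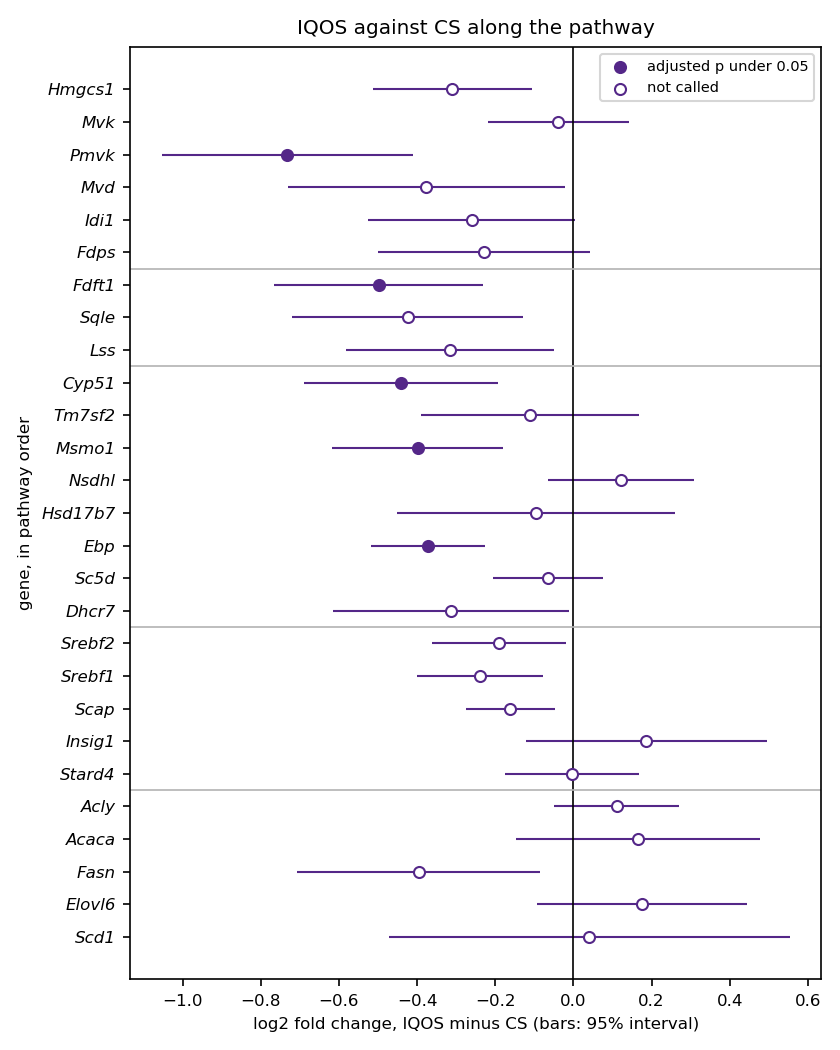
Log2 change for IQOS minus CS (horizontal axis) for each measured gene in pathway order, with 95% intervals and filled points where the adjusted p was under 0.05. Of the 17 sterol enzymes at the top, 16 lie left of 0 and Nsdhl lies right of it. The 5 fatty acid genes at the bottom lie on both sides.

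These counts moved with single arrays and with array row. Air 1 was the lowest air array in 15 of the 17 sterol enzymes and IQOS 1 the lowest IQOS array in 13. Without air 1, 11 of 17 were above 0 for CS against air (median 0.04). Without IQOS 1, 15 were below 0 for IQOS against CS (median -0.24), and 1 member was called lower in place of 5. With array row as a covariate, 9 of 17 were above 0 for CS against air, 14 were below 0 for IQOS against air, and 13 were below 0 for IQOS against CS (median -0.17).

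In that fit none of the 5 genes that fell in IQOS against CS was called: Fdft1 was -0.29 (adjusted p = 0.622), Cyp51 -0.29 (0.611), Msmo1 -0.16 (0.715) and Ebp -0.25 (0.442), beside the value for Pmvk above. Without IQOS 3, Fdft1 (-0.61, adjusted p = 0.0252) and Ebp (-0.36, 0.0425) were called with Pmvk, whereas Cyp51 (-0.47, 0.074) and Msmo1 (-0.39, 0.0905) were not. Ebp was the steadiest of the 4, lost only without CS 2 (adjusted p = 0.0529) and with array row. The calls of Fdft1, Cyp51 and Msmo1 were each lost when any of 7 of the 9 arrays was left out (adjusted p up to 0.101, 0.117 and 0.109). Fdft1 kept its call without air 3 or IQOS 3, Cyp51 without air 1 or air 2, and Msmo1 without air 1 or air 3.

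The regulators moved little. Srebf2 averaged -0.93 ± 0.06 in IQOS lungs, -0.74 ± 0.04 in CS lungs and -0.92 ± 0.12 in air lungs (SD, n = 3 each). Its CS arrays were above all others, with 0.18 ± 0.07 for CS against air (SE, adjusted p = 0.161) and -0.19 ± 0.07 for IQOS against CS (0.144). Srebf1 averaged 3.58 ± 0.08 in IQOS, 3.82 ± 0.06 in CS and 3.73 ± 0.08 in air lungs, and was -0.24 ± 0.07 for IQOS against CS (adjusted p = 0.069). Scap had the smallest spread of these: 2.88, 2.93 and 2.94 in IQOS lungs, 3.07, 3.09 and 3.07 in CS lungs, and 3.04, 3.00 and 3.03 in air lungs. The 3 groups of Scap did not overlap, yet the steps were small (-0.16 ± 0.05 for IQOS against CS, adjusted p = 0.0777). Insig1, whose transcript rises with SREBP activity, averaged -1.89 ± 0.18 in IQOS, -2.07 ± 0.12 in CS and -1.87 ± 0.22 in air lungs. Its mean was lowest in CS lungs, with -0.20 ± 0.13 against air (adjusted p = 0.353).

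Stard4, a soluble carrier that moves cholesterol between membranes, was the 1 member lower in both exposures with a call in each. It read 0.11, 0.27 and 0.19 in IQOS lungs, 0.24, 0.12 and 0.21 in CS lungs, and 0.57, 0.49 and 0.68 in air lungs. All 6 exposed arrays lay below all 3 air arrays, and the 2 exposures overlapped throughout. Stard4 fell by 0.39 with CS (SE 0.07, adjusted p = 0.0214) and by 0.39 with IQOS (SE 0.07, adjusted p = 0.035), each 1.31-fold. The exposures differed by -0.0033, with an interval from -0.18 to 0.17. On the air and CS slide alone the fall with CS was called (adjusted p = 0.0411). It was lost without air 1, air 3, CS 2 or CS 3 (up to 0.0763) and with array row (-0.49, 0.0862). The fall with IQOS was lost when any array but CS 1 was left out, IQOS 3 included (-0.39, adjusted p = 0.0831), and the highest adjusted p was 0.123. A far dimmer second probe gave -0.33 with CS and -0.17 with IQOS, neither called (adjusted p = 0.374 and 0.655).

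**Figure D4:**
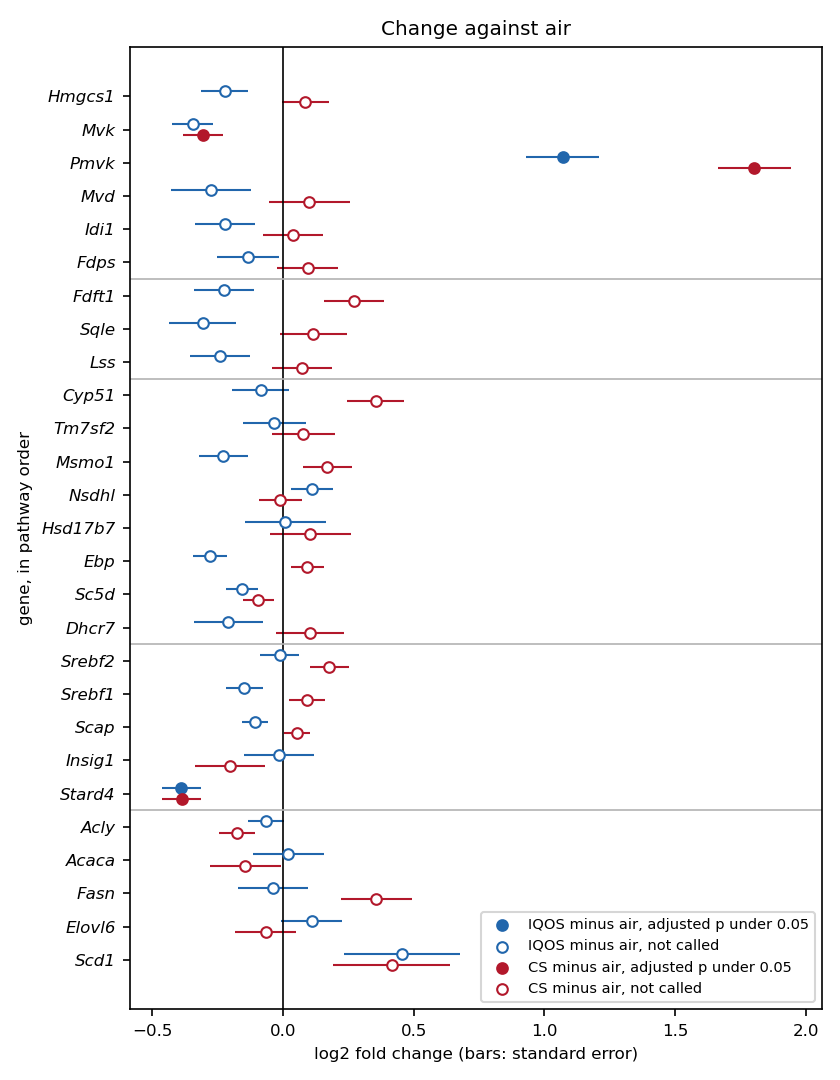
Log2 change against air (horizontal axis, bars are standard errors) for IQOS (blue) and CS (red) in pathway order, with filled points where the adjusted p was under 0.05. Pmvk stands far right in both, Mvk and Stard4 left in both, and for most other sterol enzymes the red point lies right of 0 and the blue point left of it.

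The 5 genes of fatty acid synthesis gave 0 calls by limma in any comparison, with 2, 0 and 1 at an unadjusted p under 0.05 for CS against air, IQOS against air and IQOS against CS. Fasn, the fatty acid synthase, read 5.93, 6.37 and 5.96 in IQOS lungs, 6.34, 6.60 and 6.51 in CS lungs, and 5.99, 6.26 and 6.14 in air lungs. The CS arrays were above all air arrays, while IQOS 2 reached into the CS range. Fasn was 0.36 ± 0.13 for CS against air (adjusted p = 0.128) and -0.40 ± 0.13 for IQOS against CS (0.104). Scd1, the desaturase that makes oleate, read 4.77, 5.16 and 4.90 in IQOS lungs, 4.99, 5.11 and 4.61 in CS lungs, and 4.31, 4.96 and 4.19 in air lungs. Air 2 lay within the range of the exposed arrays, so all groups overlapped. Scd1 was 0.46 ± 0.22 with IQOS (adjusted p = 0.278) and 0.42 ± 0.22 with CS (0.258).

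Acly, which supplies cytosolic acetyl-CoA, averaged 4.55 ± 0.07 in IQOS lungs, 4.44 ± 0.06 in CS lungs and 4.61 ± 0.09 in air lungs (SD, n = 3 each). Its CS arrays lay below all others, with -0.18 ± 0.07 against air (SE, adjusted p = 0.141). Acaca, the carboxylase that makes malonyl-CoA, averaged 2.97 ± 0.15 in IQOS, 2.81 ± 0.05 in CS and 2.95 ± 0.27 in air lungs. Elovl6, the elongase of saturated chains, averaged 1.30 ± 0.21 in IQOS, 1.12 ± 0.13 in CS and 1.19 ± 0.08 in air lungs. The 5 genes did not move together: for IQOS against CS, Fasn was below 0 and the other 4 were above it.

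Other genes of the same pathways were taken from 4 further lists. Among 12 other sterol synthesis and SREBP genes, 0 were called with IQOS against air by limma (2 at an unadjusted p under 0.05). Mbtps1, the protease that releases SREBP, fell by 0.22 with CS (SE 0.05, adjusted p = 0.0366), a call lost when any of the 9 arrays was left out (highest adjusted p 0.129).

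Of 27 tested genes of fatty acid synthesis, elongation and desaturation outside the members, 1 fell with CS, and 2 were higher and 1 lower in IQOS than in CS. Against air, 0 were called with IQOS by limma, with 10 at an unadjusted p under 0.05. Acacb, the mitochondrial carboxylase whose product restrains fatty acid oxidation, fell by 0.81 with CS (SE 0.12, adjusted p = 0.00916) and was 0.70 ± 0.12 higher in IQOS than in CS (0.0128). Mlxipl, the carbohydrate-sensing factor of lipogenesis, was 0.29 ± 0.06 higher in IQOS than in CS (adjusted p = 0.0234), and Acsl4, which activates arachidonate, 0.35 lower (-0.35 ± 0.08, 0.033). The Acacb calls held with any 1 array left out, IQOS 3 included (0.70, adjusted p = 0.0374). Mlxipl was called without IQOS 3 (0.33, adjusted p = 0.0367) but not without CS 2, CS 3, IQOS 1 or IQOS 2 (up to 0.0742). Acsl4 was not called without IQOS 3 (-0.30, adjusted p = 0.0849), nor without air 1, air 3, CS 2, CS 3 or IQOS 1 (up to 0.106).

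Of 18 genes of sterol efflux, storage and the sterol sensor LXR, 3 rose and 1 fell with CS, and 1 was higher and 4 lower in IQOS than in CS. With IQOS against air 0 were called, with 4 at an unadjusted p under 0.05. Ch25h, which makes an oxysterol that holds SREBP back, read 0.87, 0.32 and 1.35 in IQOS lungs, 2.56, 2.45 and 3.08 in CS lungs, and 0.67, 0.81 and 0.75 in air lungs. The CS arrays stood clear of the rest. It rose by 1.95 ± 0.26 with CS (adjusted p = 0.00736) and was -1.85 ± 0.26 in IQOS against CS (0.00755). Abcg1, a sterol exporter, rose by 0.35 ± 0.08 (adjusted p = 0.0335) and Npc2, a lysosomal sterol carrier, by 0.45 ± 0.10 (0.0278) with CS. Nceh1, which frees cholesterol from its esters, fell by 0.41 (SE 0.08, adjusted p = 0.0183). Both Ch25h calls held with any 1 array left out, and without IQOS 3 the difference between the exposures was -2.10 (adjusted p = 0.00807). All other calls of this list between the exposures were lost without IQOS 3 (adjusted p from 0.0541 to 0.0874). With CS against air, the calls of Abcg1 were lost without any 1 of the air and CS arrays (up to 0.0998), of Npc2 without any of these but CS 1 (up to 0.0925), and of Nceh1 without air 1, air 3, CS 2 or CS 3 (up to 0.0679).

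Of 18 genes of fatty acid oxidation, 17 were below 0 with CS, of which 1 passed the test, and 3 were called higher in IQOS than in CS. Acadm, a mitochondrial dehydrogenase, fell by 0.32 with CS (SE 0.08, adjusted p = 0.0478) and was 0.36 ± 0.08 higher in IQOS than in CS (0.0358). Hadhb, a subunit of the mitochondrial trifunctional protein, was 0.24 ± 0.06 higher in IQOS than in CS (adjusted p = 0.0431), and Etfdh, which passes electrons from fatty acid oxidation to the respiratory chain, 0.27 ± 0.07 higher (0.0435). None of these calls was steady. Those of Hadhb and Etfdh, and of Acadm with CS, were lost when any of the 9 arrays was left out (adjusted p up to 0.115, 0.114 and 0.12). Without IQOS 3, Acadm was 0.34 (adjusted p = 0.0896), Hadhb 0.21 (0.106) and Etfdh 0.21 (0.094) in IQOS against CS. The Acadm call between the exposures was kept only without air 1 or air 2. With IQOS against air 0 were called and 0 passed an unadjusted p under 0.05.

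Markers of lung cell types moved with the exposures. The sums below add linear signals, in units of the array's 75th percentile, so the brightest markers of a list weigh most. The sum of 12 macrophage markers was 158 to 185 in IQOS lungs, 291 to 389 in CS lungs and 139 to 164 in air lungs. Chil3, the brightest of them, read 7.89, 7.41 and 7.71 on CS 1 to 3. Of the 12, 7 were called higher with CS and 7 lower in IQOS than in CS. With CS against air, 9 were above 0 and 3 below (Siglecf, Mertk and Lpl). The sum of 11 alveolar type II markers was 1237 to 1389 in IQOS lungs, 1407 to 1481 in CS lungs and 1340 to 1371 in air lungs, with 1 called higher with CS (Sftpd) and the same 1 lower in IQOS than in CS. The type II markers did not move one way with CS against air: 6 were above 0 and 5 below (median 0.03). For IQOS against CS, 9 were below 0 and 2 above (median -0.13), where 46.8% of all genes were below. For IQOS against air, 9 were also below 0 and 2 above (median -0.07), where 52.7% of all genes were below. In 4 of the 11 (Sftpb, Sftpa1, Sftpd and Napsa) every CS array was above every air array, as in 17.2% of all genes. In 3 every CS array was below every air array, as in 21% of all genes. These were Abca3, Lpcat1 and Cxcl15, with -0.28, -0.21 and -0.43 and no call (adjusted p = 0.0644, 0.149 and 0.124).

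The sum of 13 adipocyte markers was 64.6 to 90.5 in IQOS lungs, 45.6 to 65.4 in CS lungs and 65.8 to 88.8 in air lungs, with 2 of 12 tested called lower with CS and 0 between the exposures by limma (4 at an unadjusted p under 0.05). The sum of 8 neutrophil markers was 176 to 437 in IQOS lungs, 339 to 754 in CS lungs and 184 to 231 in air lungs, with 3 called higher with CS and 1 lower in IQOS than in CS. The sum of 8 fibroblast and matrix markers was 119 to 132 in IQOS, 84.8 to 112 in CS and 136 to 151 in air lungs, with 5 called lower with CS and 3 higher in IQOS than in CS. The 6 club cell markers summed to 1690 to 1875 in IQOS, 1810 to 1981 in CS and 1632 to 1662 in air lungs, with 2 called higher with CS and 2 lower in IQOS than in CS. Endothelial sums overlapped between the groups (2 of 8 called lower with CS and 1 higher in IQOS than in CS), as did ciliated sums (0 of 6 called by limma). Of 5 B cell markers 1 was called lower with CS and 0 between the exposures by limma (4 at an unadjusted p under 0.05). No marker list had a gene at background on all arrays. The part of these cell types in the sterol gene results was not tested.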

How the data were processed

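Whole-lung RNA was measured on 9 one-colour Agilent arrays, 3 in each of the IQOS, CS and air groups, which came from the labels. Per the file headers, the authors obtained the intensity of each spot from version 10.7.1.1 of Agilent Feature Extraction, background-subtracted and detrended but not normalized between arrays. The authors' deposited value matrix of the series gives the ratio of each signal to its array's 75th percentile on a linear scale, as its values showed. Its column medians were 0.12, 0.12 and 0.121 for IQOS 1 to 3, 0.121, 0.119 and 0.117 for CS 1 to 3, and 0.115, 0.117 and 0.122 for air 1 to 3, and it was used as an alternative.

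From the deposited intensity, log2 values were computed without outlier spots, averaged over the spots of a probe, and reduced by the log2 of the array's 75th percentile (973 to 1098 units). Between 64.3% and 68.8% of 56605 probes were well above background on an array. The number of arrays and the signal over background, not read depth, limit the precision. Testing was limited to probes with values on at least 2 arrays of each group that were, in 1 group or more, well above background wherever measured, which left 37258 probes and 16590 genes. Accessions were matched to RefSeq symbols, which gave 32994 probes 1 symbol. The fit by lmFit and eBayes of limma 3.58.1, in R 4.3.3 (data.table package, version 1.17.8), had no covariate. It used Benjamini-Hochberg adjustment over all probes tested. The fit was also run on simulated data with independent noise for each probe. That simulation held no slide, array-row or shared array effect, so it cannot show how the fit handles them.

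The members and gene lists were chosen with earlier results of these data known. The rule named all members, for each pathway list and comparison the 4 genes (or fewer) of lowest p, and a few markers. Some of the list genes it chose are not reported here. Neighbouring genes of the called members were looked up after the values were seen, and only those of Pmvk are given. The files hold no mean signal column, so the normexp alternative (offset 50) used median signals. Slide could not be a block, because 1 slide held the IQOS arrays alone. Other alternatives were quantile normalization, median centring, 2 other filters on dim probes, the deposited ratios, an intensity trend, a replicate block, a covariate for array row, averaging a gene's probes (those with a value on every array, a restriction added after seeing the data, since a missing spot shifted the mean), only the arrays compared, an adjusted p under 0.1 and each array left out in turn. Whether the replicate numbers pair the arrays is not clear. The correlation of same-numbered deviations was between -0.0789 and 0.201 over 9 pairs, and the same-numbered array was the best match in 5 of them.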

Additional observations from a re-analysis of the deposited data

Results flagged for a closer look

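In 5 genes the change against air differed between the exposures by the test of IQOS against CS itself. Pmvk differed by -0.73 on the log2 scale (adjusted p = 0.0206), with both exposures above air. Fdft1 differed by -0.50 (adjusted p = 0.0367), Cyp51 by -0.44 (0.0426), Msmo1 by -0.40 (0.0389) and Ebp by -0.37 (0.0145), and in these 4 the CS mean was above air and the IQOS mean below it. The IQOS arrays were alone on their slide, so the slide cannot be told apart from these differences, and none of the 5 was called with array row as a covariate.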

How the results depend on the processing

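The rise of Pmvk with CS kept its call in all 21 alternative settings. All 10 calls kept their sign in all of them. The number of members called moved more. For CS against air, the number called higher (1) was 2 with the normexp background, with the replicate block and at an adjusted p under 0.1. The number called lower (2) was 0 with no filter on dim probes and with array row, 1 with the replicate block and with only the arrays compared, and between 0 and 2 with 1 array left out. The median change (0.09) was 0.0091 with array row and 0.04 to 0.12 with 1 array left out. For IQOS against air, the number called higher (1) was 0 with array row and 0 to 1 with 1 array left out. The number called lower (1) was 4 with the normexp background, 3 with median centring, with the filter on all 9 arrays, with an intensity trend and at an adjusted p under 0.1, and 0 with no filter, with the replicate block, with array row and with only the arrays compared. With 1 array left out it was 0 to 1. For IQOS against CS, the number called lower (5) was 9 with the normexp background and at an adjusted p under 0.1. It was 8 with an intensity trend, 6 with median centring, and 4 with quantile normalization and with a gene's probes averaged. It was 2 with no filter and with only the arrays compared, 0 with array row, and 0 to 4 with 1 array left out. Fewer arrays or more probes enter the leave-one-out, arrays-compared and no-filter fits, and for the other settings the cause was not tested. It is not clear whether the shared replicate numbers pair the arrays. With the replicate block, the calls of Mvk with CS (adjusted p = 0.0703) and Stard4 with IQOS (0.076) were lost. So were those of Cyp51 (0.0638) and Msmo1 (0.069) between the exposures. With 3 arrays a group, signal over background and the spread between arrays limit what can be called.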
